A study of Drosophila melanogaster with 4 samples.

Results

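Isolated RNA polymerase II (Pol II) regions are stretches of enriched chromatin with no other enriched region nearby. They were taken from the authors' list for the replicate set, called the whole-series list here, on the major chromosome arms 2L, 2R, 3L, 3R and X. A region was isolated when the gaps to the previous and to the next region on its arm were both 10000 bp or more. The members were thus chosen by the start and end positions in that list, and the first and last region of each arm were left out. This left 953 isolated regions among 9714 on the major arms, or 9.81%, out of 9885 regions in the whole list. The other 8761 regions of these arms served for comparison. Of these, 2863 had 1 gap of 10000 bp or more, 5888 had none, and 10 were the first or last of an arm.

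The material was whole embryos of wild-type *Drosophila melanogaster* of the Oregon-R-modENCODE strain, aged 14 to 16 h, with all tissues mixed. Pol II was precipitated from chromatin crosslinked with 1.8% formaldehyde, using an abcam antibody, and the bound DNA was sequenced (ChIP-seq). The series had 4 samples of that strain and stage and no other condition, namely 2 ChIP libraries and 2 input libraries. Each input served 1 ChIP library, per the labels, and no values of the inputs themselves were analysed here. Both ChIP replicates had a list of their own, with 5128 and 5131 regions on the major arms. In mixed tissue, strong binding in few cells and weak binding in many cannot be told apart. Read depth is unknown, so a stretch without a region may lack Pol II or lack reads. The labels do not say whether the replicates came from separate embryo collections, so the spread between them may be technical.

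Pol II transcribes protein-coding genes and many non-coding RNAs. In fly embryos it often stops shortly after starting, so that a gene can carry a sharp focus of Pol II near its start, while a strongly transcribed gene can carry Pol II along its whole body. Fly genes lie close together over much of the arms, with long gene-poor or developmentally regulated stretches between. Which genes lie at these regions was not analysed here, since the lists are on genome release 5 and the available gene table is on release 6. All positions below are on release 5, counted from 1.

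The gaps chose the members, so they are given as description only. The smaller of the 2 gaps had a median of 17370 bp among isolated regions, with quartiles of 12601 and 25266 bp. The larger gap had a median of 36215 bp. Between all neighbouring regions of the arms the median gap was 3425 bp. The major arms held 2388 gaps of 10000 bp or more, which added up to 74.3 Mb. Of these, 1498 gaps with 51.3 Mb bordered an isolated region. Isolated regions themselves covered 1.95 Mb of the 22.9 Mb covered by all regions of these arms.

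The 3 regions nearest to the limit on each side are given without a test. The score is a value per region that the authors deposited. Its formula is not stated, and exact ties place it on a log2 scale. Just inside the limit was X from 9125396 to 9126489, with a smaller gap of 10020 bp and a score of 0.48. It was followed by 2R from 17947505 to 17949487, with 10047 bp and 0.40, and by X from 1201515 to 1203514, with 10068 bp and 0.49. Just outside was 3L from 5730894 to 5732686, with a smaller gap of 9995 bp and a score of 0.48. Next were 2L from 22442292 to 22444132, with 9981 bp and 0.41, and 2L from 3729289 to 3731554, with 9976 bp and 0.89.

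Isolated regions piled up at a few widths, and the other regions peaked at much the same widths but lower near 2 kb. The median width of isolated regions was 1945 bp, with quartiles of 1294 and 2161 bp. That of the other regions was 1940 bp, with quartiles of 1344 and 2648 bp. The medians were nearly equal, but the distributions differed in shape. Regions under 1301 bp made up 25.2% of isolated and 23.0% of other regions, and the list held none under 1001 bp. Regions 1900 to under 2300 bp wide made up 33.2% of isolated regions (316 regions, Wilson 95% interval 30.2 to 36.2) and 20.6% of the other regions (1808 regions, interval 19.8 to 21.5). Regions of 3000 bp or more made up 10.9% of isolated regions (interval 9.09 to 13.1) and 19.5% of the others (interval 18.7 to 20.3). The widest isolated region spanned 10929 bp, while the widest of all regions spanned 73089 bp. Intervals here cover counting error only, neighbouring regions can depend on each other, and the members came from the same list, so no test was made. The width classes were set after the widths were seen.

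**Figure D1:**
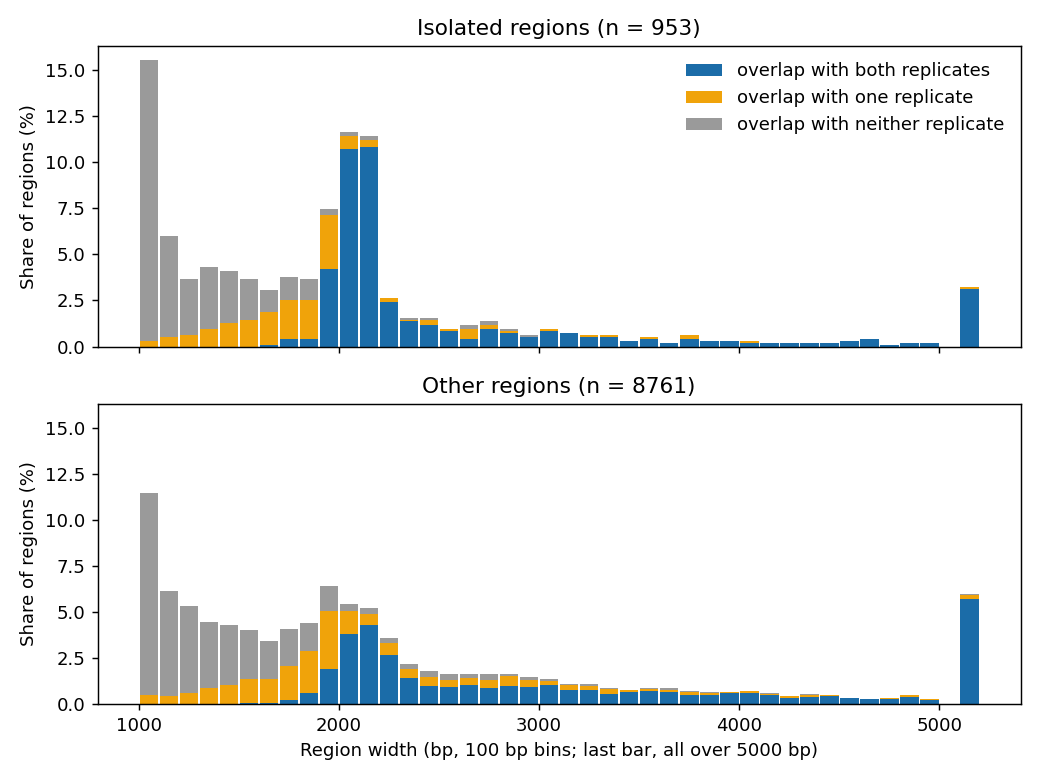
Widths of isolated (upper panel) and other (lower panel) Pol II regions of the major arms in 100 bp bins, as a share of each set in percent, with colours for overlap with both, one or neither ChIP replicate. Isolated regions peak at the smallest widths, with 15.5% in the first bin, and again between 2001 and 2200 bp, with 11.6% and 11.4% in the 2 bins there. The first bin is also the fullest of the other regions, with 11.5%, and their next fullest starts at 1901 bp, with 6.39%.

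The peak near 2 kb was also present in each replicate when the gap rule was applied to its own list. That rule found 1321 isolated regions in replicate 1 and 1368 in replicate 2. In replicate 1, 46.2% of them were 1900 to under 2300 bp wide, against 34.1% of its other regions. In replicate 2 these shares were 54.8% and 37.1%. The means were 50.5% ± 6.1 for isolated and 35.6% ± 2.1 for other regions (SD, n = 2 replicates). Regions of 3000 bp or more made up 9.61% ± 0.87 of isolated and 16.8% ± 0.6 of other regions in the replicate lists (SD, n = 2). Both replicates thus had the larger share near 2 kb and the smaller share of wide regions among their isolated regions. With 2 replicates, an exact sign-flip test of the differences could not go below a two-sided p of 0.5, so none was made.

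Within the narrow band of widths near 2 kb, score climbed steeply with width. It was read in 4 steps of 100 bp. In the step that starts at 1900 bp the median score of isolated regions was 0.39 (66 regions). It was 0.57 in the step from 2000 bp (113 regions), 0.82 in that from 2100 bp (112 regions) and 1.10 in that from 2200 bp (25 regions). The ranges between the quartiles did not overlap among the first 3 steps, and those of the last 2 did. Across the 316 isolated regions of this band, width and score correlated with Spearman's rho at 0.83 and Pearson's r at 0.79. Across the 1808 other regions of the band these were 0.72 and 0.63. All points come from 1 list, so this is a description.

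The other regions climbed less far over the same band. Their median scores were 0.41, 0.51, 0.72 and 0.75 in the same 4 steps. In the replicate lists, isolated regions by their own gaps had a rho of 0.83 in replicate 1 (610 regions) and 0.87 in replicate 2 (749 regions). Their other regions had 0.76 and 0.78. From the first to the last step, replicate 1 medians went from 0.56 to 1.14 in isolated and from 0.58 to 1.00 in other regions. In replicate 2 they went from 0.55 to 1.27 and from 0.55 to 1.05. The other regions thus climbed less far there too, but the contrast was smaller than in the whole-series list. How the caller sets the edges of a region is not stated, and its part in the link between width and score was not tested.

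**Figure D2:**
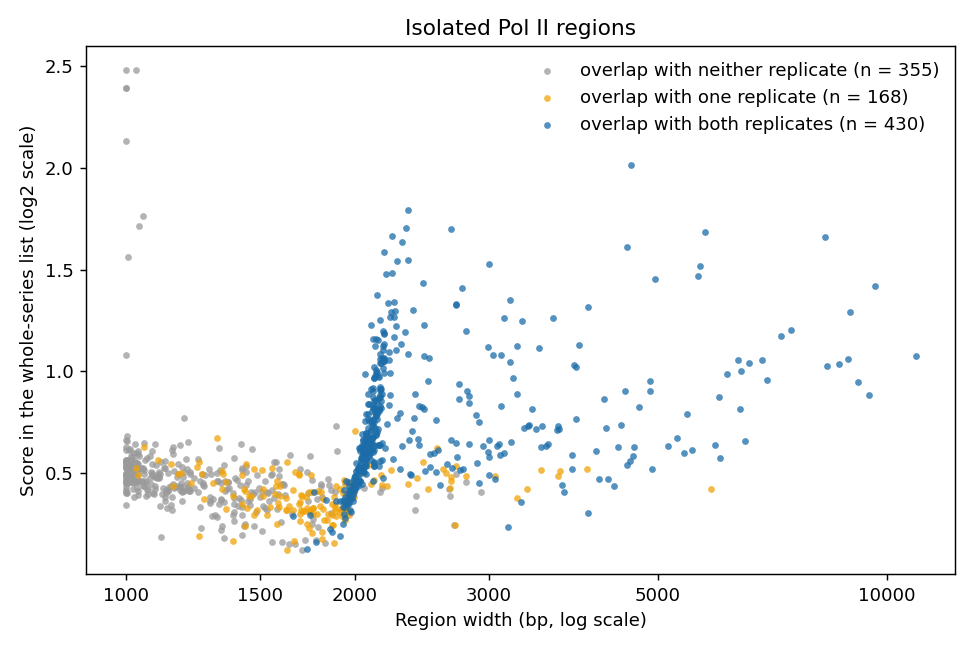
Each point is 1 of the 953 isolated regions, by width in bp (log axis) and score in the whole-series list (log2 scale), coloured by overlap with the ChIP replicates. Points form a steep ridge around 2000 bp, where the median score of all isolated regions goes from 0.39 in the 100 bp step from 1900 bp to 1.10 in that from 2200 bp, and 9 points under 1100 bp wide with scores of 1 or more have no replicate region.

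Isolated regions had a slightly higher median score in the whole-series list, which was not tested. Their median score was 0.51 (quartiles 0.42 and 0.66), and that of the other regions was 0.47 (quartiles 0.41 and 0.59). On each of the 5 arms the isolated median was the higher of the pair. It was 0.48 against 0.46 on 2L, 0.50 against 0.46 on 2R, and 0.50 against 0.46 on 3L. On 3R it was 0.49 against 0.46, and on the X 0.55 against 0.52.

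In the replicate lists this difference was not seen for regions lying under isolated regions. Replicate regions that overlapped an isolated region had a median score of 0.69 in replicate 1, against 0.70 for those that overlapped another region. In replicate 2 the medians were 0.70 and 0.69. The direction differed between the replicates, and the means of 0.694 ± 0.006 and 0.694 ± 0.008 (SD, n = 2) lay within the replicate spread. Isolated regions thus held replicate regions of ordinary strength, whose median score stood above 48.0% of the replicate 1 list and 51.9% of the replicate 2 list. The whole-series and replicate scores may not be on a common scale.

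High scores were not rarer among isolated regions than among the others. A score of 1 or more was reached by 101 isolated regions (10.6%) and by 631 other regions (7.20%). Of the 101, 92 were 2000 bp wide or more, and all 92 overlapped both replicates. The remaining 9 were under 1100 bp wide and overlapped neither replicate. None of the 101 had a width from 1100 to under 2000 bp. The other regions split in much the same way. Of their 631, 614 were 2000 bp wide or more, 12 were under 1100 bp and 5 lay between, and 613 overlapped both replicates and 16 neither. Isolated regions were 16 of the 100 highest-scoring regions of the major arms and 128 of the 1000 highest, against 9.81% of all regions there. The 16 include the 10 highest-scoring isolated regions, and 7 of these 10 overlapped neither replicate. The count in the top 100 thus rests in part on regions without replicate support. Among the 50 highest-scoring other regions, all in the top 100 too, 9 overlapped neither replicate.

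Most isolated regions were found either in both replicates or in neither. A region was counted as supported by a replicate when it overlapped a region of its list by 1 bp or more. Of the isolated regions, 430 overlapped both replicates (45.1%, Wilson 95% interval 42.0 to 48.3), against 38.0% of all major-arm regions and 37.3% of the other regions (interval 36.3 to 38.3). Another 168 (17.6%) overlapped a single replicate, 68 of them replicate 1 and 100 replicate 2, against 21.1% of all major-arm regions. Among the other regions, 949 overlapped replicate 1 alone and 933 replicate 2 alone. The last 355 (37.3%, interval 34.2 to 40.4) overlapped neither, against 40.9% of all major-arm regions and 41.3% of the other regions (interval 40.2 to 42.3). This last order turned when replicate regions were extended by 500 bp on each side, to 37.1% of isolated and 36.1% of other regions. The same extension raised the share of other regions in both replicates to 41.1% and left that of isolated regions at 45.1%. Without extension, other regions with 1 gap of 10000 bp or more had 41.5% in both replicates (interval 39.7 to 43.3) and 37.9% in neither. Those with both gaps under 10000 bp had 35.2% and 42.9%. Isolated regions thus had nearly the same share in neither replicate as regions with 1 such gap, and the intervals for both replicates overlapped. The replicates come from the libraries behind the whole-series list, so support is a description of these lists and not independent evidence.

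Each replicate overlapped a larger share of isolated than of other regions. Replicate 1 overlapped 498 isolated regions (52.3%), against 48.5% of all major-arm regions and 48.1% of the other regions. Replicate 2 overlapped 530 (55.6%), against 48.7% of all and 47.9% of the other regions. The means were 53.9% ± 2.4 and 48.0% ± 0.1 (SD, n = 2). The same comparison was made with the gaps of each replicate's own list. Of the 1321 isolated regions of replicate 1, 80.4% overlapped a replicate 2 region, against 76.3% of its other regions. Of the 1368 isolated regions of replicate 2, 78.9% overlapped a replicate 1 region, against 76.6% of its others. The difference was 4.14 and 2.31 percentage points, with a mean of 3.23 ± 1.29 (SD, n = 2).

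Support followed width closely. No region under 1301 bp, isolated or other, overlapped both replicates, and 1301 bp was the narrowest region in either replicate list. This class held 240 isolated regions, of which 94.2% overlapped neither replicate, against 93.3% of the 2015 other regions of that width. From 1301 to under 1900 bp, 4.19% of 215 isolated regions overlapped both, against 4.04% of all regions of that width. From 1900 to under 2300 bp, 84.8% of 316 isolated regions did (interval 80.4 to 88.3), against 64.8% of all regions and 61.3% of 1808 other regions of that width (interval 59.0 to 63.5).

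Above that width, isolated regions again had the higher shares. From 2300 to under 3000 bp the share was 73.1% of 78 isolated regions (interval 62.3 to 81.7), against 60.7% of all and 59.8% of other regions. At 3000 bp or more it was 92.3% of 104 isolated regions (interval 85.6 to 96.1), against 84.3% of all and 83.9% of other regions. No isolated region of 3000 bp or more lacked support altogether, and 3.39% of the other regions of that width did. Since the classes were set with the values in view, the same was read in 4 width classes of equal size. Between 1942 and 2596 bp, 86.4% of isolated (interval 82.3 to 89.6) and 65.0% of other regions (interval 62.9 to 67.0) overlapped both replicates. At 2597 bp or more the shares were 84.6% (interval 77.8 to 89.6) and 77.7% (interval 76.0 to 79.4). Between 1341 and 1941 bp they were 8.33% (interval 5.34 to 12.8) and 6.02% (interval 5.10 to 7.09). In both of these classes the intervals of isolated and other regions overlapped. No region from 1001 to 1340 bp overlapped both replicates.

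**Figure D3:**
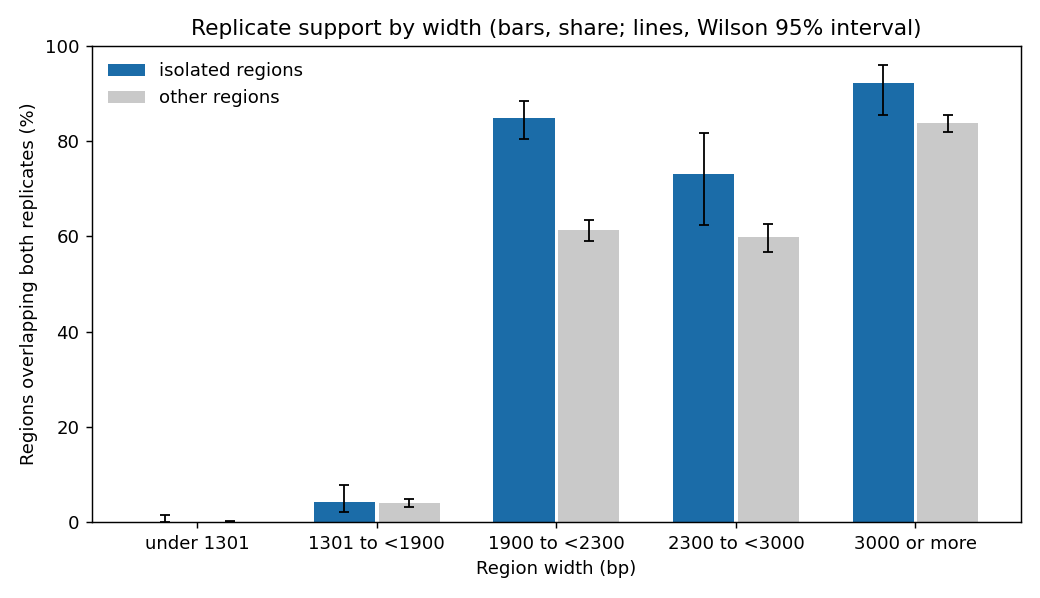
Share of isolated and other Pol II regions that overlap both ChIP replicates, in percent, in 5 classes of width in bp. Bars are shares and lines are Wilson 95% intervals. Isolated regions stand highest above the others from 1900 to under 2300 bp, with 84.8% against 61.3%, and both sets are at 0 under 1301 bp.

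Score and width did not stand in for each other. The major-arm regions were put into 4 score classes of equal size. In the top class, from 0.60 up, 88.6% of 315 isolated and 94.4% of 2114 other regions overlapped both replicates. In the class below, the shares were 31.5% and 35.0%. In both, the isolated share was the lower, the reverse of the order over all scores. In the 2 lowest classes it was the higher, with 22.1% against 12.8% and 16.3% against 9.81%. The top class held 27 isolated regions under 1301 bp, 8.57% of its isolated regions, and 96.3% of the 27 overlapped neither replicate. Of its other regions 65 were that narrow, or 3.07%.

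Within the band of 1900 to under 2300 bp, the score classes differed in how far isolated and other regions lay apart. In the top class both replicates overlapped 98.8% of 164 isolated and 98.5% of 588 other regions. In the next class down these shares were 91.4% of 58 and 58.0% of 462. They were then 60.4% of 48 and 31.5% of 473, and in the lowest class 52.2% of 46 and 39.3% of 285. At like score, the larger share among isolated regions near 2 kb thus lay in the middle and low scores. Isolated regions of the band were also more often in the top class, 164 of 316 against 588 of 1808. The difference over the whole band therefore holds both parts.

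Isolated regions found in both replicates had close edges. In 404 of them each replicate had exactly 1 region. The starts of these 2 regions differed by a median of 51.5 bp and the ends by 48 bp. For 2827 other regions with 1 region in each replicate the medians were 83 and 80 bp. Over all widths the upper quartiles were 120 and 122 bp for isolated regions and 260 and 263 bp for the others. Most of this contrast was absent at like width. Among regions of the band near 2 kb alone, the medians were 39.5 and 38 bp for 268 isolated regions and 53 and 44 bp for 1107 other regions, and the upper quartiles were 89.3 and 82 bp against 114 and 109 bp.

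The scores of the same regions were compared across replicates. Across the 404 regions, scores of the 2 replicates had Pearson's r at 0.81 and Spearman's rho at 0.72, and across the 2827 others 0.85 and 0.78. The median score difference between replicates was 0.13 for isolated and 0.11 for other regions. Replicate 1 had the higher score in 46.3% of the isolated regions. Few isolated regions were split, since 15 held 2 or more regions of replicate 1 and 17 held 2 or more of replicate 2. Exactly 1 region in each replicate lay in 404 of the 430 isolated regions found in both, and in 2827 of 3265 other regions. In the band near 2 kb this was so for 268 of 268 and 1107 of 1108, so the contrast was absent at that width.

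**Figure D4:**
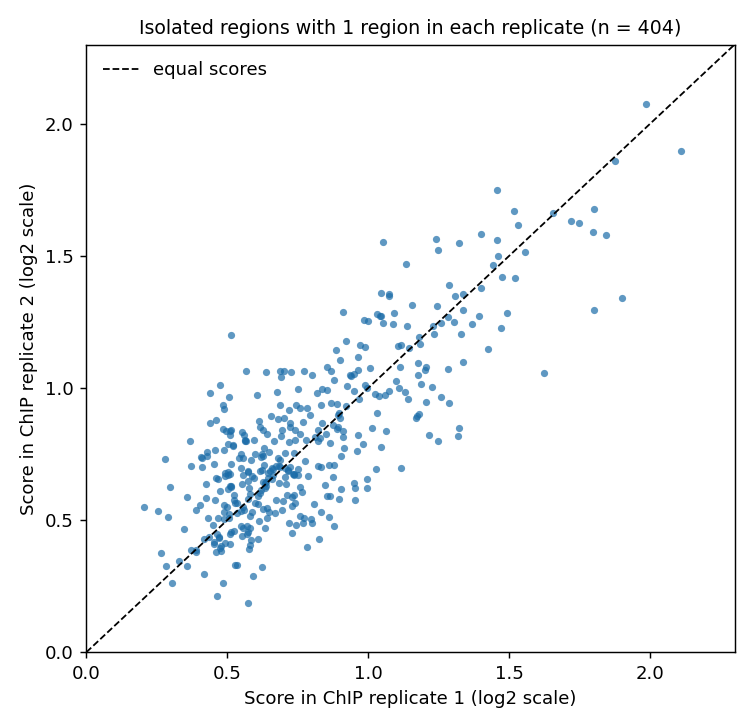
Scores in ChIP replicates 1 and 2 (log2 scale) of the 404 isolated regions with 1 region in each replicate. The dashed line marks equal scores. Points follow the line with a Pearson r of 0.81, and the median difference between replicates is 0.13.

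Isolation was also read in the replicate lists, as a description that rests on the gaps the rule used. Only 54 regions of replicate 1 and 25 of replicate 2 on the major arms were absent from the whole-series list, so a region isolated there is nearly bound to be isolated in them. Of the 498 isolated regions with a replicate 1 region, that region had both gaps at 10000 bp or more in 467 (93.8%). In replicate 2 this was so for 509 of 530 (96.0%). Replicate regions under other regions of the whole-series list were isolated in 18.3% and 18.7% of cases. The gaps beside isolated regions were not empty in every list, since 23 regions of replicate 1 and 10 of replicate 2 lay inside them that the whole-series list does not contain.

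The highest-scoring isolated region found in both replicates was 2L from 13546689 to 13551301. It was 4613 bp wide and scored 2.01, and its gaps were 32238 and 88265 bp. It was 4628 bp wide with a score of 1.98 in replicate 1, and 4510 bp wide with a score of 2.07 in replicate 2. Ranks were counted over the major arms of each list, where it stood 23rd in the whole-series list, 16th in replicate 1 and 18th in replicate 2. It was thus strong and of like width in all 3 lists. The second was 3R from 6088964 to 6091311, 2348 bp wide, with scores of 1.79 in the whole-series list and 1.88 and 1.86 in replicates 1 and 2.

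The next 3 were less alike between replicates. On 3L, the region from 14266400 to 14268733 scored 1.71, with 1.80 in replicate 1 and 1.68 in replicate 2, and its right gap was 133205 bp. On the X, the region from 1027771 to 1030443 scored 1.70, with 1.84 and 1.58. The fifth, 3L from 8667615 to 8673383, was 5769 bp wide and scored 1.68. Its replicate 2 region was 5441 bp wide and scored 1.90, but its replicate 1 region was only 2788 bp wide and scored 2.11, rank 10 of its list.

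The widest isolated regions were often cut differently by the replicates. The widest in both was X from 13486722 to 13497650, 10929 bp, which was 2 regions in each replicate. Next was 3L from 11479598 to 11489245, 9648 bp with a score of 1.42. It was a single region of 9630 bp in replicate 1 and 2 regions in replicate 2. The third, X from 14365583 to 14375066, was 9484 bp wide. It was 9537 bp in replicate 1 and only 2115 bp in replicate 2, with scores of 1.17 and 0.89. Its left gap was 118095 bp. The other 2 were 3R from 24423373 to 24432537, 9165 bp wide, and 3L from 15714844 to 15723802, 8959 bp wide. None of these 5 was a single region of like width in both replicates.

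The most remote regions were mostly narrow and poorly supported. The region with the largest smaller gap was 3L from 23976122 to 23977122. It was 1001 bp wide and scored 2.39, and its gaps were 231209 and 262740 bp. It overlapped neither replicate. Next came 2R from 288226 to 289411, 1186 bp wide with a score of 0.43 and a smaller gap of 112929 bp, also found in neither. The third, 2R from 15891707 to 15893412, was 1706 bp wide and scored 0.39 with a smaller gap of 104560 bp. It was found in replicate 2 alone. The fourth, X from 13889858 to 13891592, was 1735 bp wide and scored 0.36 with a smaller gap of 104301 bp. It was found in neither. Only the fifth was found in both. It was 2L from 18011334 to 18013475, 2142 bp wide, with a smaller gap of 100574 bp, and it scored 1.00 in the whole-series list and 1.17 and 0.89 in replicates 1 and 2.

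The same did not hold over the whole range of gaps. Where the smaller gap was 10 to 20 kb, 43.2% of 570 regions overlapped both replicates (interval 39.2 to 47.3). At 20 to 50 kb the share was 48.0% of 323 (interval 42.6 to 53.4), and at 50 kb or more 48.3% of 60 (interval 36.2 to 60.7). Below the limit it ranged from 36.1% of 3945 regions with a smaller gap under 1 kb to 38.4% of 2127 at 2 to 5 kb. Median scores went from 0.47 at under 1 kb to 0.52 at 20 to 50 kb and were 0.48 at 50 kb or more. The median width at 50 kb or more was 1929.5 bp, near the 1941 bp of all major-arm regions.

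The top scores among isolated regions without replicate support belonged to very narrow regions. The first was 2R from 3753901 to 3754902, 1002 bp wide, with a score of 2.48. It was followed by 3L from 21746578 to 21747610, 1033 bp wide, also with 2.48, and by 3L from 5297759 to 5298759, 1001 bp wide, with 2.39. Of the 10 highest-scoring isolated regions, 7 overlapped neither replicate and all 7 were narrower than 1301 bp. Of the 10 highest-scoring other regions, 5 overlapped neither and all 5 were that narrow. Among the 100 highest-scoring of each set, 91 isolated and 91 other regions overlapped both replicates, so this pattern was shared by all regions. Scores equal to that of some other major-arm region, to all digits deposited, occurred in 66.8% of the 355 isolated regions without replicate support and in 12.1% of the 430 found in both. Among other regions these shares were 62.8% and 12.1%. What makes scores tie was not tested.

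Isolated regions were spread over all major arms. On 2R they were the smallest share of the arm's regions, 7.56% (152 of 2011, Wilson 95% interval 6.48 to 8.80). The share was 10.7% on 2L (182 of 1708, interval 9.28 to 12.2), 10.3% on 3L (198 of 1915), 10.3% on 3R (234 of 2270) and 10.3% on the X (187 of 1810). Arm 2R also had the most regions of all kinds per Mb, 95.1 against 74.2 to 81.3 on the others, and its part in the smaller share was not tested. Per Mb, isolated regions ranged from 7.19 on 2R to 8.39 on 3R. By the gaps of the replicates' own lists, 22.2% ± 0.5 of 2R regions were isolated (SD, n = 2), against 25.6% ± 1.6 on 3L, 26.9% ± 1.0 on 3R, 27.7% ± 0.6 on the X and 29.4% ± 0.5 on 2L. The 2R values of both replicates were below those of every other arm.

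**Figure D5:**
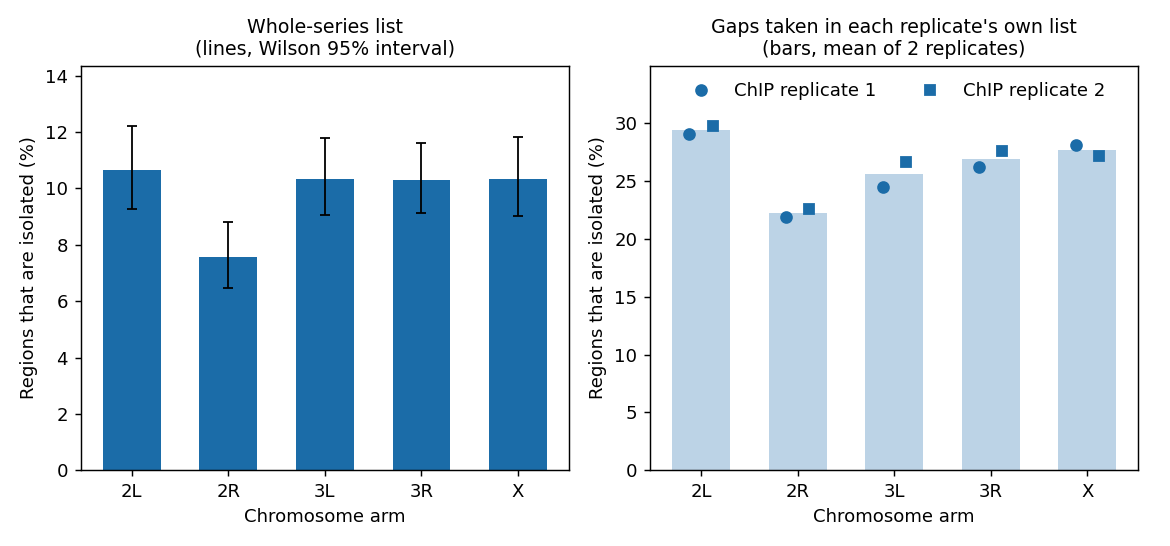
Share of each arm's Pol II regions that are isolated, in percent. Left, the whole-series list with Wilson 95% intervals as lines; right, the rule applied to each ChIP replicate's own list, with bars for the mean and points for the 2 replicates. Arm 2R is lowest in both panels, at 7.56% and 22.2%.

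Support of isolated regions spanned about as many percentage points between arms as lay between isolated and other regions over all arms. The share found in both replicates ran from 40.6% on the X (interval 33.9 to 47.8) to 48.9% on 2L (interval 41.7 to 56.1), and these intervals overlap. On every arm it was above that of the arm's other regions, which ran from 34.3% on the X to 39.1% on 2L. The median width of isolated regions was 1770 bp on the X and 1940 to 1993 bp on the other 4 arms.

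Near the centromere ends, where regions of any kind are few on most arms, more of those present were isolated but fewer were supported. Within 2 Mb of these ends, 67 of 478 regions were isolated (14.0%), against 9.59% in the rest of the arms. The share was 26.5% on 2R, 25.6% on 3L and 18.3% on the X, but 10.4% on 2L and 6.35% on 3R, where it was not raised. Of the 67, 15 overlapped both replicates (22.4%, Wilson 95% interval 14.1 to 33.7), against 46.8% of the 886 isolated regions elsewhere (interval 43.6 to 50.1). For other regions these shares were 34.8% and 37.4%.

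Every full 1 Mb bin of the major arms held isolated regions. Over 117 such bins the median was 8, with a range from 2 to 14, while the number of all regions ranged from 11 to 133. The most were in 3R from 21000001 to 22000000, with 14 of 76 regions. The fewest were in 2R from 2000001 to 3000000, with 2 of 94, and in 3R from 5000001 to 6000000, with 2 of 97. The highest share in a full bin was 7 of 11 regions in 3L from 23000001 to 24000000, followed by 11 of 22 in 2R from 1 to 1000000.

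Isolated regions could follow one another along an arm. Neighbours share a gap, so each neighbour of an isolated region already has 1 gap of 10000 bp or more, and the share in runs is raised by the rule itself. Of the 953, 636 (66.7%) had an isolated region as a neighbour and formed 228 runs of 2 or more, and 317 stood between regions that were not isolated. Runs of 5 or more numbered 23 and held 134 regions. Support differed little between the 2 kinds. Both replicates overlapped 43.7% of regions in runs (interval 39.9 to 47.6) and 47.9% of those standing alone (interval 42.5 to 53.4). Their median scores were 0.51 and 0.50.

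The longest runs had 8 regions each and mixed supported with unsupported regions. On 2L, 8 regions lay between 17591551 and 18115608, within 555 kb that held no others. The strongest was the remote region that starts at 18011334, given above. The region from 17751413 to 17753524 scored 0.90, with 0.89 in replicate 1 and 0.94 in replicate 2, and was 2112 bp wide. The region from 17777291 to 17779348 was 2058 bp wide and scored 0.51, with 0.78 and 0.40. These 3 were the only ones of the run found in both replicates, and all 3 were just over 2 kb wide. Of the other 5, which were 1016 to 1667 bp wide, 2 were found in replicate 2 alone and 3 in neither.

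The run on 3L lay between 18154647 and 18534042, within 471 kb without other regions. Its 2 strongest regions were again just over 2 kb wide. The region from 18390455 to 18392576 was 2122 bp wide and scored 0.97, with 0.94 in replicate 1 and 1.05 in replicate 2. The region from 18177663 to 18179735 was 2073 bp wide and scored 0.70, with 0.74 and 0.67. A further 2 regions found in both replicates were weak. They were 1962 and 1932 bp wide and scored 0.35 and 0.25. Of the remaining 4, 1 was found in replicate 2 alone and 3, of 1001 to 1293 bp, in neither.

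A run of 7 on 2L contained the highest-scoring supported isolated region. It lay between 13418244 and 13666637, within 312 kb without other regions, and 5 of its 7 regions overlapped both replicates. Its scores ran from 0.36 to 2.01 and its widths from 1390 to 4613 bp.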

How the data were processed

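Lists of enriched regions, and not reads, were analysed. The submitters' processing notes name Bowtie 0.12.7 as a tool, and coordinates are on FlyBase release 5, per the file headers. The region caller, its threshold, the score's formula and how the replicates were joined were not given in the sources used here. The score per region is the authors' deposited value. Among 190 differences between the 20 most repeated scores of the whole-series list, 28 were the log2 of a quotient of integers no larger than 32, to within 1e-06, and 0 did so for natural or base-10 logarithms. The corresponding log2 counts were 50 and 46 in replicates 1 and 2.

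Arm lengths came from the file headers. Gaps were the next start minus the previous end minus 1. Overlap needed 1 bp, and of several replicate regions the one sharing most bases gave the width and score. Wilson 95% intervals were computed with scipy 1.17.1. Python 3.11.15, numpy 2.4.6, pandas 2.3.3 and matplotlib 3.10.9 were used. Isolation and overlap calls were tested on simulated data against direct search. No test over regions was made, since the rule used these lists.

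The members and classes were chosen with earlier results of these data known. Named were the 5 highest-scoring and 5 widest isolated regions in both replicates, the 5 with the largest smaller gap, the 3 highest-scoring in neither, and 3 on each side of the limit. Bins and runs were named after their values were seen. Alternatives were gap limits of 5 and 20 kb, regions at or above the median score, merging within 500 bp, other overlap rules, leaving out the X or the centromere ends, and the replicates' own lists. No gene names or sequences are given, for want of a release 5 annotation or genome here.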

Additional observations from a re-analysis of the deposited data

How the results depend on the processing

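Of 59 values recomputed under alternatives, 42 stayed within 1.5 times (counts), the 95% interval (medians and shares) or the replicate SD of the value reported, 16 moved and 1 reversed. The reversed value was the share in neither replicate, 37.1% with replicate regions extended by 500 bp, where the other regions had 36.1%. Reversal was not checked for median widths, which were nearly equal in the main list (1945 and 1940 bp). The isolated median width was the smaller at a 5 kb gap limit (1912.5 against 1948 bp) and after merging (1983 against 2059 bp). It was also the smaller at or above the median score and in both replicates' own lists (2023 against 2041 and 2044 against 2067 bp). A gap limit of 5 kb gave 1978 isolated regions, a median score of 0.49, 41.3% in both replicates, and 78.5% in both from 1900 to under 2300 bp, against 59.5% of other regions. A limit of 20 kb gave 383 regions. These 2 limits change the number by construction. Keeping only regions that reached the median score gave a median width of 2169 bp, a median score of 0.64, 67.8% in both replicates and 23.7% in neither. There, other regions had 2315 bp, 0.59, 62.7% and 25.1%, and the isolated share of 2R over that of the other arms was 0.89, against 0.73 for the whole list. The median score was 0.50 without the X, and 50% reciprocal overlap gave 41.2% in both replicates. The replicates' own lists gave median widths of 2023 and 2044 bp. Their median scores were 0.703 and 0.698, against 0.696 and 0.687 for other regions. The cause of shifts not due to construction was not tested. With a replicate left out, 52.3% to 55.6% of isolated regions were overlapped, by replicate regions of 2023 to 2032 bp and median scores of 0.69 to 0.70. These values are simply those of the other replicate. With 2 replicates each lies within the SD of the mean by construction, so their place among the 42 shows no stability. Support by both replicates needs both lists. The settings for arms and for the band near 2 kb were chosen after seeing the data. No paired analysis was possible because only 1 group, the ChIP libraries, was described. Read depth is unknown and its limits were not assessed.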
